A study of Mus musculus with 8 samples.

Results

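The small leucine-rich proteoglycans are secreted matrix proteins built around a string of leucine-rich repeats, and 10 of them were followed here among the 55471 gene entries of a bulk RNA sequencing table from mouse femur. They were taken by gene symbol as Epyc, Bgn, Dcn, Fmod, Lum, Prelp, Ogn, Omd, Aspn and Chad, and each symbol had 1 entry. The rule names no values, but the choice was made with earlier results of these data known. Shares of the members set beside all tested genes are therefore descriptions. The cells were sorted from the femurs of neonates at day 3 to 5 as skeletal stem cells (SSC), which can form bone, cartilage and stroma, or as bone cartilage stromal progenitors (BCSP), which descend from SSC. The 4 groups were Tet1 knockout (KO) SSC, wild-type SSC, Tet1 KO BCSP and wild-type BCSP, each with 2 libraries titled round 1 and round 2, and the study compared KO with wild type in both cell types. Tet1 encodes an enzyme that oxidises methylated cytosine in DNA. All 8 libraries, wild type included, carry the strain name B6;129S4-Tet1tm1.1Jae/J, and the labels name no Cre driver. Whether a group's libraries came from separate animals or pools, and what a round was, is not stated in the labels, so p-values measure only the spread between these libraries, which may be technical.

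These proteins coat collagen fibrils and set how thick the fibrils grow and how closely they pack. Many carry sulfated sugar chains, chondroitin or dermatan sulfate on decorin, biglycan and epiphycan and keratan sulfate on fibromodulin, lumican and osteomodulin, and several also hold growth factors such as TGF-beta at the cell surface. In the neonatal femur they are made by growth plate chondrocytes, by osteoblasts and by fibroblasts of the tendon and periosteum. Mice lacking both biglycan and fibromodulin have been described with weak tendons and early osteoarthritis.

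Library totals ran from 104782544 to 168004119 counts, and the 10 genes together took 1.16% to 1.50% of the counts of a library. Levels are given as CPM, the usual depth-normalised count after scaling by the trimmed mean of M-values (TMM), and as RPKM, CPM per kilobase of exon, where genes are compared with each other. Tet1 itself was at 7.26 and 11.8 CPM in KO SSC and 10.8 and 12.0 CPM in KO BCSP, against 15.6 and 19.6 CPM in wild-type SSC and 21.6 and 11.0 CPM in wild-type BCSP. The library labelled wild-type BCSP, round 2, thus lay within the range of the KO libraries for Tet1, and it also stood apart in its relation of expression to exon length, with a Spearman rho of -0.495 across 12307 genes against -0.244 to 0.355 in the other 7 libraries. Several values without it are given below. The sort label held for Eng, which encodes CD105, the surface protein that BCSP carry and SSC lack. Eng had 2.53 to 3.89 CPM in SSC and 25.7 to 50.5 CPM in BCSP. All 5 sort markers listed were below 0 for SSC over BCSP. Among them Cd200, a marker used in sorting SSC, had a mean of 37.1 CPM in SSC and 49.8 CPM in BCSP. All libraries had a strong cartilage signature, with Col2a1, the main collagen of cartilage, at 234839 to 324253 CPM, and markers of endothelium summed to at most 2.72 CPM.

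Per unit of exon length the 10 genes fell into an abundant trio, a middle set and a scarce gene. Fmod, fibromodulin, a keratan sulfate proteoglycan that binds fibrillar collagen, was the highest of the family in every library, with RPKM of 1255 to 1869.9 and a median of 1347. It ranked 18 among 21633 genes by mean RPKM and made up 37.7% to 43.1% of the family's summed RPKM. Chad, chondroadherin, which links chondrocytes through integrins to collagen, came next with a median of 814 RPKM (668 to 1130.2), and Bgn, biglycan, with 737 RPKM (635 to 948). Fmod did not overlap Chad over the 8 libraries, while Chad exceeded Bgn in 7 of 8 libraries and their ranges overlapped. This order depends on the division by merged exon bases, which were 3306 for Fmod, 1680 for Chad and 6099 for Bgn. By CPM, without that division, the medians were 4455 for Fmod, 1368 for Chad and 4497 for Bgn.

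**Figure D1:**
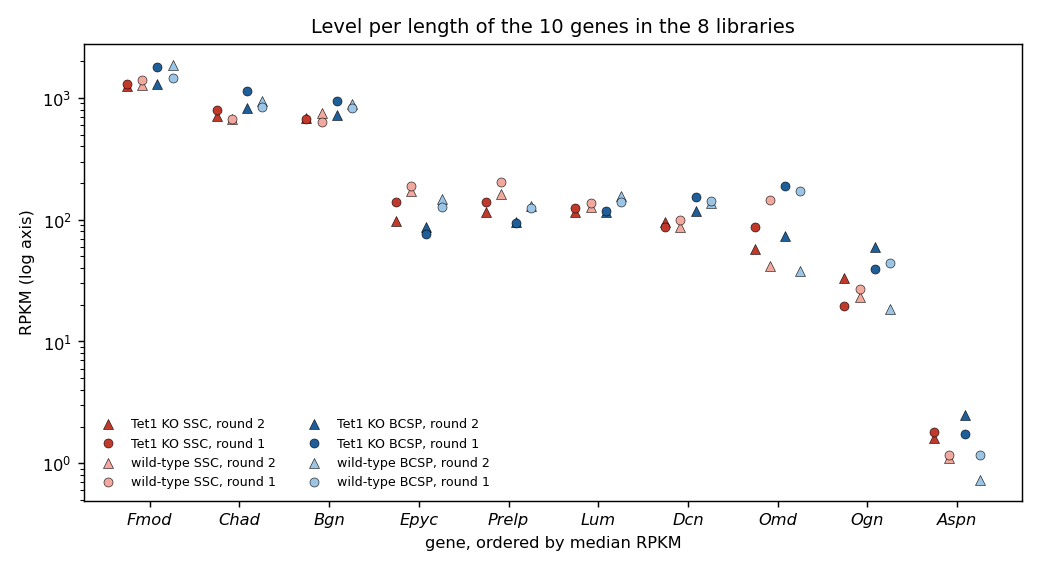
RPKM (log axis) of each of the 10 genes in each of the 8 libraries, with genes ordered by median and points coloured by group (triangles, round 2; circles, round 1). Fmod, Chad and Bgn lie at 635 RPKM or more in every library, Epyc, Prelp, Lum and Dcn share one band, Omd spans 38.2 to 190.5 RPKM, and Aspn is at 2.51 RPKM or less.

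The middle set held Epyc at a median of 134 RPKM, Prelp at 128 RPKM, Lum at 127 RPKM and Dcn at 108 RPKM, and the ranges of each gene and the next overlapped. By CPM their order was another, with medians of 343 for Epyc, 462 for Prelp, 309.7 for Lum and 633 for Dcn, which has 5838 exon bases. Epyc, epiphycan, is a dermatan sulfate proteoglycan of the growth plate, Prelp, prolargin, anchors collagen to heparan sulfate at basement membranes, Lum is lumican, known for the order of corneal collagen, and Dcn, decorin, binds collagen and TGF-beta. Lum was the steadiest of the 10, its highest library at 1.34 times its lowest. Omd, osteomodulin, a keratan sulfate proteoglycan of bone matrix that binds osteoblasts and mineral, was the most variable, with a median of 80.5 RPKM and a highest library at 4.99 times its lowest. Ogn, osteoglycin or mimecan, found in bone and many connective tissues, had a median of 29.9 RPKM (18.5 to 59.3). Aspn, asporin, which binds TGF-beta and whose aspartate repeat has been linked to human osteoarthritis, was the scarcest at 1.40 RPKM (0.729 to 2.51), still 246 to 719 counts per library. The summed RPKM of the 10 genes was 3173 to 3510.4 in SSC and 3407 to 4540.2 in BCSP, ranges that overlap.

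The genes sit in clusters in the mouse genome (mm10). Dcn, Lum, the family member Kera and Epyc follow each other on chromosome 10, where Epyc spans chr10:97644068-97682454 on the plus strand. Aspn (chr13:49544443-49567565), Omd (chr13:49582462-49592822) and Ogn (chr13:49608046-49624501) follow the family member Ecm2 on chromosome 13, all on the plus strand and within the span of Cenpp, a centromere protein gene read from the other strand. On chromosome 1, Prelp (chr1:133910304-133921414, minus strand) lies next to Optc and 115.839 kb from Fmod. Gaps within the chromosome 10 and 13 clusters were 11.653 to 46.984 kb, and apart from Cenpp, which spans the chromosome 13 genes, 0 protein-coding genes lay wholly within them, while Bgn lies on X and Chad on chromosome 11. No source used here gives the strand used in counting, and Epyc shares 1041 exon bases with the antisense gene Gm10754 and Prelp shares 350 with the antisense gene Gm15851. These antisense genes had at most 35 and 33 counts in any library, against at least 24422 for Epyc and 42203 for Prelp. With the strand setting unknown, how reads in the shared bases were counted cannot be told. RPKM divides by all exon bases, 2561 for Epyc, shared ones included.

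Between genotypes, Epyc, Prelp and Lum were lower and Aspn higher in the KO libraries of each cell type, and the abundant trio lay close to level, but none of the 10 passed an adjusted p of 0.05 in edgeR's quasi-likelihood test. Epyc had 356 and 252 CPM in KO SSC, against 488 and 437 CPM in wild-type SSC. In BCSP, Epyc had 195 and 222 CPM in KO and 329 and 381 CPM in wild type. No KO library reached a wild-type library of the same cell type, although KO SSC and wild-type BCSP overlapped. Over both cell types the log2 fold change of Epyc was -0.69 ± 0.17 (SE; 95% interval -1.05 to -0.33), with an edgeR adjusted p of 0.411 over 22153 genes. This value had the smallest unadjusted p of the 10 members, 0.00116 by edgeR. The call depends on the test: Epyc passed with DESeq2 (adjusted p 0.00967) and in edgeR with no filter on low counts (adjusted p 0.037), and the adjusted p ran up to 0.957 over the alternatives tried.

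Prelp followed the same order. It had 505 and 417 CPM in KO SSC, against 735 and 580.5 CPM in wild-type SSC, and 337 and 346 CPM in KO BCSP, against 453 and 471 CPM in wild-type BCSP. The groups did not overlap within either cell type, and the log2 fold change over both was -0.47 ± 0.16, with an edgeR adjusted p of 0.609. Lum had 307 and 285 CPM in KO SSC, against 333 and 312 CPM in wild-type SSC, and 288 and 282 CPM in KO BCSP, against 341 and 379 CPM in wild-type BCSP. All 4 KO libraries of Lum lay below all 4 wild-type libraries, but the size was small, with a log2 fold change of -0.23 ± 0.15 and an edgeR adjusted p of 0.68.

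Aspn ran the other way. It had 4.23 and 3.79 CPM in KO SSC and 4.11 and 5.90 CPM in KO BCSP, against 2.76 and 2.62 CPM in wild-type SSC and 2.78 and 1.72 CPM in wild-type BCSP. All 4 KO libraries of Aspn were above all 4 wild-type libraries, with a log2 fold change of 0.87 ± 0.26 and an edgeR adjusted p of 0.596. Without the library labelled wild-type BCSP, round 2, the value was 0.68 for Aspn, -0.63 for Epyc, -0.47 for Prelp and -0.18 for Lum. The log2 difference of KO minus wild type within each round and cell type is a description that does not take the rounds as pairs. It was -0.79 to -0.45 for Epyc, -0.54 to -0.43 for Prelp, -0.42 to -0.12 for Lum and 0.53 to 1.78 for Aspn. Since the KO and wild-type libraries of these genes did not overlap within either cell type, the same sign in 4 of 4 cases had to follow. That sign adds nothing to the lack of overlap.

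**Figure D2:**
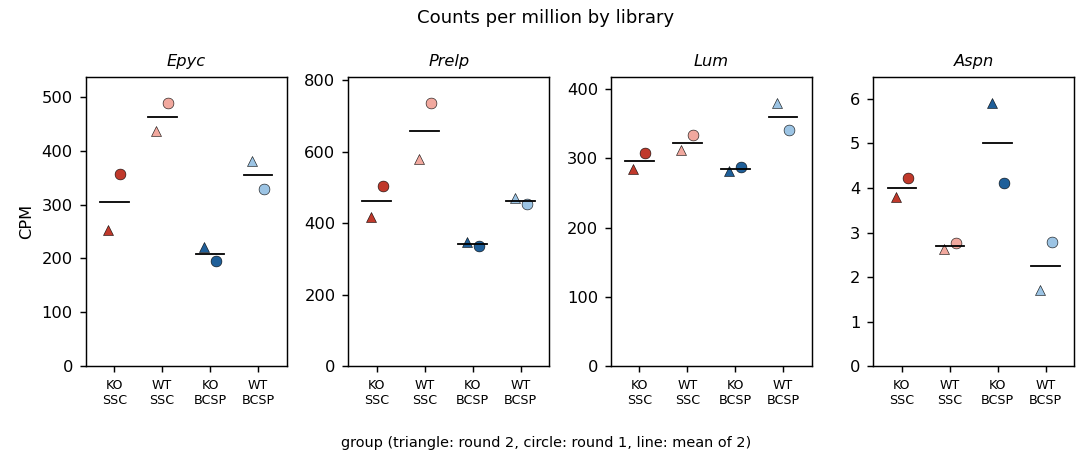
CPM of Epyc, Prelp, Lum and Aspn in each library, by group (triangles, round 2; circles, round 1; lines, mean of 2 libraries; axes start at 0). In both SSC and BCSP the KO libraries are below the wild-type libraries for Epyc, Prelp and Lum and above them for Aspn.

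Of the 10 genes, 3 were lower and 1 was higher in KO without overlap in each cell type, against 8.25% of all tested genes that did so in either direction. With all 4 KO libraries against all 4 wild-type libraries, 2 of 10 did not overlap, against 4.37% of tested genes: Lum was lower, as were 2.25% of tested genes, and Aspn was higher, as were 2.13%. Taken within a single cell type, 5 of 10 members did not overlap in SSC and 4 of 10 in BCSP, against 27.6% and 33.3% of tested genes. No member passed the adjusted threshold in SSC (0.00451% of tested genes did), in BCSP (0.00451%) or over both cell types (0.0135%), and at an unadjusted edgeR p under 0.05 there were 1, 2 and 3 members, where 1.2%, 6.19% and 7.91% of tested genes lay. DESeq2 called 1 member over both cell types, Epyc, and 103 of all 22153 tested genes. The median log2 fold change over both cell types was -0.03 for the 10 genes and 0.02 for all tested genes.

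The abundant genes differed little by genotype without a covariate. Fmod had 4279 and 4150.1 CPM in KO SSC and 5918 and 4286 CPM in KO BCSP, against 4623 and 4228 CPM in wild-type SSC and 4829 and 6182 CPM in wild-type BCSP. Bgn had 4105 and 4172 CPM in KO SSC and 5780.2 and 4449 CPM in KO BCSP, against 3872 and 4544 CPM in wild-type SSC and 4999.7 and 5460.2 CPM in wild-type BCSP. For both genes the KO and wild-type libraries overlapped in each cell type, and the 95% intervals of the log2 fold change over both cell types were -0.49 to 0.31 for Fmod and -0.41 to 0.36 for Bgn. Chad had 1341 and 1201 CPM in KO SSC and 1899 and 1395 CPM in KO BCSP, against 1134 and 1123 CPM in wild-type SSC and 1407 and 1587 CPM in wild-type BCSP, a log2 fold change of 0.15 (-0.21 to 0.52). Chad was above wild type without overlap in KO SSC, while the BCSP libraries overlapped. Dcn, Ogn and Omd had log2 fold changes of -0.03 ± 0.16, 0.36 ± 0.27 and -0.02 ± 0.62 over both cell types, and their KO and wild-type libraries overlapped. Without the library labelled wild-type BCSP, round 2, Ogn was at 0.11 and Omd at -0.37, and leaving out each library in turn gave 0.11 to 0.57 for Ogn and -0.43 to 0.51 for Omd.

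**Figure D3:**
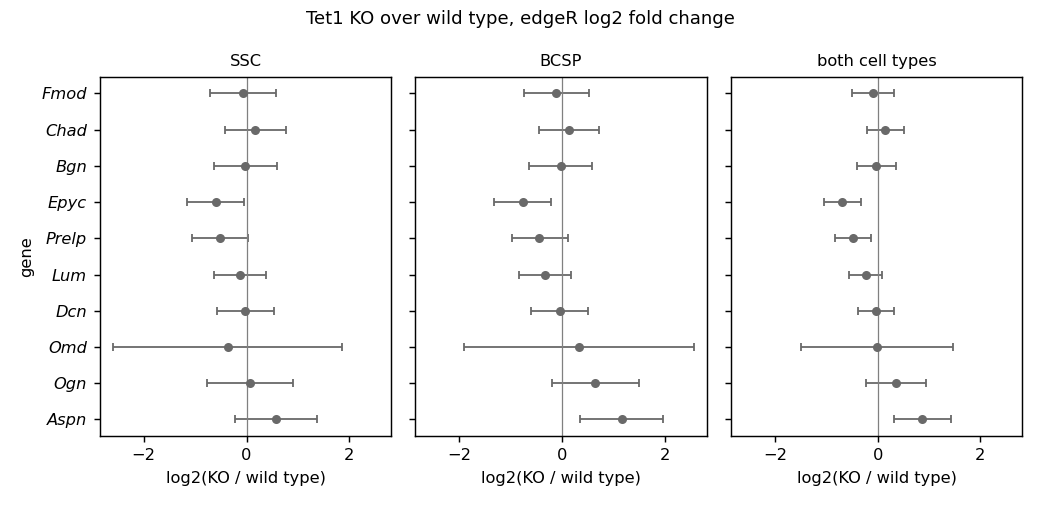
Log2 fold change of KO over wild type from edgeR for each gene in SSC, in BCSP and over both cell types (points, with 95% intervals; the line marks 0). Epyc and Prelp lie below 0 and Aspn above 0 in all 3 panels, while the interval of Omd over both cell types spans -1.50 to 1.46.

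The difference between KO and wild type was not shown to depend on the cell type. For Epyc the log2 fold change was -0.60 ± 0.26 in SSC and -0.77 ± 0.26 in BCSP, and their difference was 0.16 ± 0.37 (edgeR adjusted p 1). For Aspn it was 0.58 ± 0.37 in SSC and 1.16 ± 0.38 in BCSP, with a difference of -0.58 ± 0.53 (edgeR adjusted p 1). For Prelp it was -0.51 ± 0.25 in SSC and -0.44 ± 0.25 in BCSP, a difference of -0.08 ± 0.36. The test of the difference called 0 members in edgeR, 0 at an unadjusted p under 0.05 and 0 in DESeq2, against 0% of all tested genes at the adjusted threshold and 1.27% at the unadjusted one. The 95% interval for Epyc, -0.63 to 0.95, leaves room for responses of unequal size.

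Genes that work with the family had 0 calls by genotype in edgeR, and the examples are those with the smallest p in each direction. Of 14 collagens and cross-linking enzymes, 12 were above 0 (median log2 fold change 0.21), among them Col14a1, a collagen on fibril surfaces, at 0.38 ± 0.14 and Col3a1 at 0.31 ± 0.19. Those below 0 were Col9a1 at -0.05 ± 0.18 and Col2a1 at -0.02 ± 0.21. Of 21 enzymes that build or sulfate the sugar chains, 17 were below 0 (median -0.17), with Chst12, a chondroitin sulfotransferase, at -0.51 ± 0.16 and Chst5, a keratan sulfate sulfotransferase family member, at -0.70 ± 0.29. Of 16 bound ligands and receptors, 14 were above 0 (median 0.27), among them Bmp2 at 0.41 ± 0.14 and Egfr, a receptor that decorin binds, at 0.44 ± 0.19. Of 9 proteases that process or cleave the family, 5 were above 0, with Mmp3 at 0.51 ± 0.21 and Adamts4 at 0.85 ± 0.39. Over all tested genes 48.4% were below 0. At an unadjusted edgeR p under 0.05 lay 1 of 14 collagens and cross-linking enzymes, 3 of 21 chain enzymes, 2 of 16 ligands and receptors and 2 of 9 proteases, against 7.91% of tested genes.

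No marker of another cell type passed by genotype in edgeR, but several lists lay to one side. Of 8 tendon and fibroblast markers, all 8 were above 0 in KO (median 0.38), with summed levels of 1887 to 3486 CPM in KO and 1608 to 3007 CPM in wild type, and 9 of 10 chondrocyte markers were below 0 (median -0.23), with sums of 277060.4 to 362405 CPM in KO and 280777 to 364936 CPM in wild type. Skeletal muscle markers were low and summed to 1.63 to 4.62 CPM in KO and 4.91 to 17.6 CPM in wild type without overlap, nearly all of it Acta1, at -1.93 ± 0.37 (edgeR adjusted p 0.217), with Myog listed at 0 in all 4 wild-type libraries. Ddx3y, on the Y chromosome, had 62.1 to 92.2 CPM in KO and 23.2 to 39.7 CPM in wild type, and Xist, expressed in females, had 75.0 to 291 CPM in KO and 277 to 621 CPM in wild type. With the level of 4 Y-linked genes as a covariate, chosen after seeing the data, the log2 fold change was -0.54 ± 0.34 for Epyc and -0.32 ± 0.31 for Prelp. It was -0.04 ± 0.28 for Lum and 0.01 ± 0.53 for Aspn. In the same fit the abundant genes moved up, to 0.62 ± 0.30 for Chad, 0.55 ± 0.32 for Fmod and 0.25 ± 0.34 for Bgn, with no member called in edgeR. The Y-linked level itself separated the genotypes, at 0.07 to 0.69 in KO and -0.94 to -0.19 in wild type (log2, centred). Genotype and covariate are thus hardly told apart in this fit, and its standard errors are wider than without the covariate. In these bulk samples fewer cells of a type and less RNA per cell cannot be told apart, and the part of the marker differences in the members' values was not tested beyond that covariate.

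TET1 acts on methylated CG dinucleotides, so the 250 bases before a RefSeq start (build GRCm38.p6) are shown for Epyc, Prelp, Aspn and Omd. For Epyc the first of 2 starts is shown. Lum, also separated by genotype, had no entry among the promoters used, nor did Dcn. Sequences run 5′ to 3′ in the direction of the gene with each CG in capitals. The windows are chr10:97643818-97644067 (plus strand) for Epyc, chr1:133921402-133921651 (minus strand) for Prelp, chr13:49544193-49544442 (plus strand) for Aspn and chr13:49582212-49582461 (plus strand) for Omd.
Epyc: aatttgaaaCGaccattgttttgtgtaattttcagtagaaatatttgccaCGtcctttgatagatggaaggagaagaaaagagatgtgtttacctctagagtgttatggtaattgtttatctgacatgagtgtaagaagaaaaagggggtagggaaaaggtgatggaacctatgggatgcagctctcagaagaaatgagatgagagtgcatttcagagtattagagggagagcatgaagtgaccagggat
Prelp: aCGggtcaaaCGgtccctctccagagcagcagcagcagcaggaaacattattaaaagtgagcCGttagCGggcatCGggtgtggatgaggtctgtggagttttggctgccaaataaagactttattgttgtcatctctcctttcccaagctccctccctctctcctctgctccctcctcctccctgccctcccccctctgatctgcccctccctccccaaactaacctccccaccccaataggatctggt
Aspn: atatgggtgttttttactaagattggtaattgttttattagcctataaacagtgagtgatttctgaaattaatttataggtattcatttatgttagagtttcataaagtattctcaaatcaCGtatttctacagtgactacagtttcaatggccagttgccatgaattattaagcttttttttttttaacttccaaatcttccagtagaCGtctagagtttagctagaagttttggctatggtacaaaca
Omd: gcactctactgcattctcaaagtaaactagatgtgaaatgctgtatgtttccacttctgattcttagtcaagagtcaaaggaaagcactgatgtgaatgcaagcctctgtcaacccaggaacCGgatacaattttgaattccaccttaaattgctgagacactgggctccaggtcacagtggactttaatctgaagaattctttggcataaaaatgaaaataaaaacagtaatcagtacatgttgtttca

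The Epyc, Aspn and Omd windows held few CG, and Prelp was close to the median. Epyc held 2, Prelp 5, Aspn 2 and Omd 1, against a median of 6 over 32841 mouse promoters of the same length, of which 92.1% held at least 1. Among the other members with an entry, Fmod held 2, Ogn 4, Bgn 7 and Chad 10. Of the motifs searched on both strands, TATAAA was found in Aspn and Ogn (2 times each) and in Chad (once), and in 12.4% of all promoters. The GC box core GGGCGG was found in Bgn (3 times) and Chad (once) and in 32.7% of promoters, and ACAATG, a core bound by SOX factors, once in the Epyc window shown and in 10.7% of promoters. The window of the second Epyc start (chr10:97646853-97647102) held 0 CG, 2 ACAATG and 1 ACAAAG, a like core found in 16.5% of promoters. TGTGGT, a core bound by RUNX factors, was found once in Ogn and in 14% of promoters. Methylation was not measured, and a match is a description of letters only.

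Between the sorted populations, 2 members were higher and 4 lower in the SSC libraries of each genotype, although no member passed the adjusted threshold in edgeR over both genotypes, where 0.00451% of tested genes did. Dcn, the member with the smallest unadjusted edgeR p here (0.00345), had 512 and 562 CPM in KO SSC, against 898 and 686 CPM in KO BCSP. In wild type, Dcn had 580.3 and 506 CPM in SSC and 834 and 806 CPM in BCSP. All 4 SSC libraries lay below all 4 BCSP libraries, and the log2 fold change of SSC over BCSP was -0.58 ± 0.16, with an edgeR adjusted p of 0.893 (DESeq2 adjusted p 0.0406; up to 1 over the alternatives). Chad, whose values are given above, also lay lower in all 4 SSC libraries than in all 4 BCSP libraries, at -0.39 ± 0.17 on the log2 scale (edgeR adjusted p 1).

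Epyc and Prelp were higher in SSC within each genotype, with log2 fold changes of 0.46 ± 0.17 and 0.47 ± 0.16 (edgeR adjusted p 1 for each). Bgn (-0.31 ± 0.18) and Fmod (-0.30 ± 0.19) were lower in SSC within each genotype without overlap, Fmod in KO only narrowly. The higher KO SSC library of Fmod had 4279 CPM and the lower KO BCSP library 4286 CPM. Ogn had 50.0 and 84.8 CPM in KO SSC, against 101 and 152 CPM in KO BCSP, and 68.7 and 59.4 CPM in wild-type SSC, against 114 and 47.5 CPM in wild-type BCSP. The Ogn libraries separated in KO and overlapped in wild type, and its log2 fold change was -0.62 ± 0.27, or -0.87 without the library labelled wild-type BCSP, round 2. Lum and Aspn were near level, at -0.05 ± 0.15 and -0.03 ± 0.26, and Omd was at -0.52 ± 0.62, or -0.87 without that library and -1.05 to -0.10 with each library left out in turn.

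**Figure D4:**
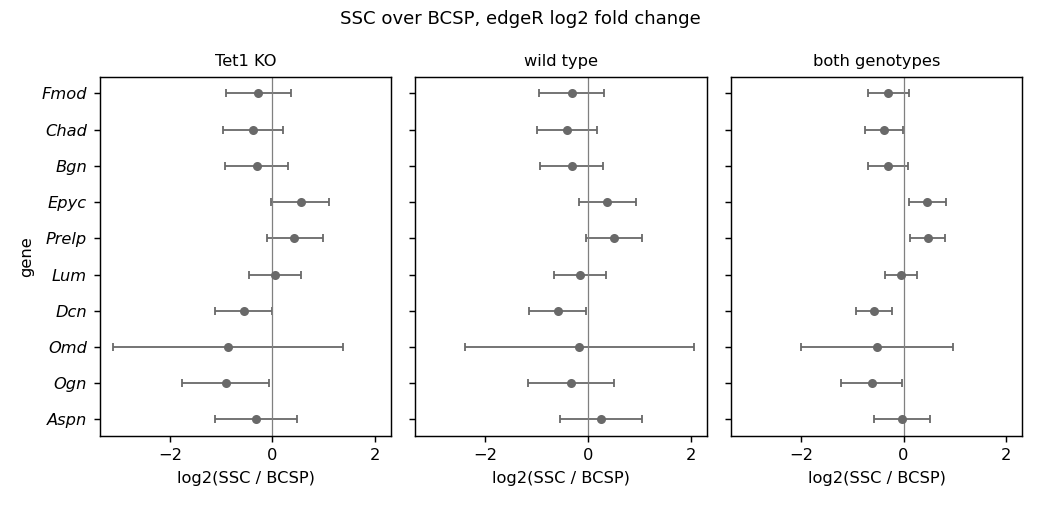
Log2 fold change of SSC over BCSP from edgeR for each gene in KO, in wild type and over both genotypes (points, with 95% intervals; the line marks 0). Epyc and Prelp lie above 0 and Dcn, Chad, Bgn and Fmod below 0 in all 3 panels.

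In all, 6 of 10 genes had SSC and BCSP libraries that did not overlap in the same direction in each genotype, 2 higher and 4 lower in SSC, against 5.48% of all tested genes. With all 4 SSC libraries against all 4 BCSP libraries, 2 of 10 (Dcn and Chad) did not overlap, against 2.53%; both were lower in SSC, as were 1.05% of tested genes, and 0 were higher, where 1.48% lay. Within a single genotype 7 of 10 members did not overlap in KO and 7 of 10 in wild type, against 24.1% and 27.3% of tested genes. At an unadjusted edgeR p under 0.05 there were 5 members over both genotypes, where 3.71% of tested genes lay, 2 in KO (1.53%) and 1 in wild type (2.48%). Over both genotypes DESeq2 called 1 member, Dcn, and 39 of all 22153 tested genes. The median log2 fold change was -0.30 for the 10 genes and 0.01 for all tested genes.

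Dcn and Epyc lie in the same cluster on chromosome 10 and their ratio within a library needs no scaling between libraries. Per length, Epyc was at 1.59 and 1.02 times Dcn in KO SSC, against 0.495 and 0.738 times in KO BCSP. In wild type the ratio was 1.92 and 1.96 in SSC and 0.899 and 1.08 in BCSP. Epyc was higher and Dcn lower in SSC within each genotype, so the SSC ratios had to lie above the BCSP ratios. That order adds nothing to the results of the single genes. The KO ratios were below the wild-type ratios of the same cell type, where Epyc was lower in KO and Dcn differed little.

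Most fibril partners, like Dcn, had values below 0. Of the 14 collagens and cross-linking enzymes, 11 were lower in SSC (median -0.24), among them Col14a1 at -0.66 ± 0.15 and Col5a2 at -0.55 ± 0.17, while Col11a1, a cartilage fibril collagen, was at 0.22 ± 0.20. Egfr was at -0.78 ± 0.19 and Csgalnact1, which starts chondroitin sulfate chains, at 0.46 ± 0.19. None passed in edgeR. All 8 tendon and fibroblast markers were lower in SSC (median -0.51), with sums of 1608 to 2636 CPM in SSC and 2281 to 3486 CPM in BCSP. The 10 chondrocyte markers were divided, with 6 above 0 and 4 below (median 0.08). Acan, the large cartilage proteoglycan, was at 0.33 ± 0.18 and Hapln1 at 0.32 ± 0.20, while Col2a1 was at -0.19 ± 0.21 and Cnmd at -0.11 ± 0.18. The part of these markers in the members' values was not tested.

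With all libraries, Omd was the only member past the threshold in the main edgeR fits, and it was so between rounds. It had 130.1 CPM in round 2 and 196 CPM in round 1 of KO SSC, and 94.3 CPM in round 2 and 326 CPM in round 1 of wild-type SSC. In KO BCSP it had 166 CPM in round 2 and 428 CPM in round 1, and in wild-type BCSP 85.8 CPM in round 2 and 388 CPM in round 1. All 4 round 2 libraries lay below all 4 round 1 libraries. With the 4 groups in the model, the log2 fold change of round 2 over round 1 was -1.48 ± 0.22 (95% interval -1.96 to -1.01), a fold of 0.357, with an edgeR adjusted p of 0.00421. The other 9 members were between -0.13 and 0.00.

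The call on Omd held in 18 of 19 alternatives, with log2 fold changes of -1.80 to -1.18, but these are not all separate. The 8 fits without 1 library tell of the round only through the groups that keep both libraries, as do fits without a whole group. Without both wild-type SSC libraries it was -1.38 with an edgeR adjusted p of 0.0887. Of the 10 members 1 was lower past the threshold, and 0.664% of tested genes were; 0 were higher, where 1.1% of tested genes lay (1.76% in either direction). Libraries of the rounds failed to overlap for 1 of 10 members and 7.62% of tested genes. The share over all genes rests on the wild-type BCSP libraries: the 390 calls became 3740 without both of them. Leaving out either one alone leaves a group of 1 library, which tells nothing of the round. Those fits thus draw on the same other groups and are not separate results. In them Ogn, at -0.02 ± 0.26 with all libraries, was at 0.38 without the round 1 library and 0.39 without the one labelled round 2. Among the fits that leave out 1 library, Ogn passed the edgeR threshold in some, though not with all libraries. Ogn had 84.8 CPM in round 2 and 50.0 CPM in round 1 of KO SSC, and 152 CPM in round 2 and 101 CPM in round 1 of KO BCSP, but 47.5 CPM in round 2 and 114 CPM in round 1 of wild-type BCSP.

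Of 10 osteoblast markers, 8 were below 0 for round 2 over round 1 and 2 above. Past the threshold 4 fell, as did 0.664% of tested genes, and 0 rose, where 1.1% of tested genes did. Ibsp, bone sialoprotein, fell by 1.84 on the log2 scale (edgeR adjusted p 0.00217) and Alpl, the mineralising phosphatase, by 0.97 (edgeR adjusted p 0.00686). Spp1, osteopontin, fell by 0.86 (edgeR adjusted p 0.0119) and Bglap, osteocalcin, by 1.82 (edgeR adjusted p 0.0378). Col1a2 was at 0.05 ± 0.17 and Ifitm5 at 0.07 ± 0.69. The summed osteoblast level, in which Col1a1 and Col1a2 weigh most, was 5880 to 9376 CPM in round 2 and 6527 to 11086 CPM in round 1. Sums of blood markers moved in the same direction at low levels. They were 2.45 to 5.43 CPM in round 2 and 5.49 to 41.1 CPM in round 1 for erythroid genes. For myeloid genes they were 2.43 to 3.28 CPM in round 2 and 8.59 to 146 CPM in round 1. The highest sum of both lists came from wild-type SSC, round 1. Past the threshold, 3 of 7 erythroid genes fell (Hba-a1, Hbb-bs and Slc4a1, by 2.08, 2.09 and 4.38 on the log2 scale) and 1 of 6 myeloid genes, Lyz2, fell by 1.94. Of the 6 myeloid genes 5 were below 0, while Csf1r was at 1.22 ± 0.49. At least 1 library listed Slc4a1, Hba-a2, Ptprc, S100a8, S100a9 and Elane at 0. Among 3 skeletal muscle genes tested, Acta1 rose by 1.06. Cd200, a marker used in sorting SSC, fell by 0.93 (edgeR adjusted p 0.00784). The part of these markers in the value of Omd was not tested.

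**Figure D5:**
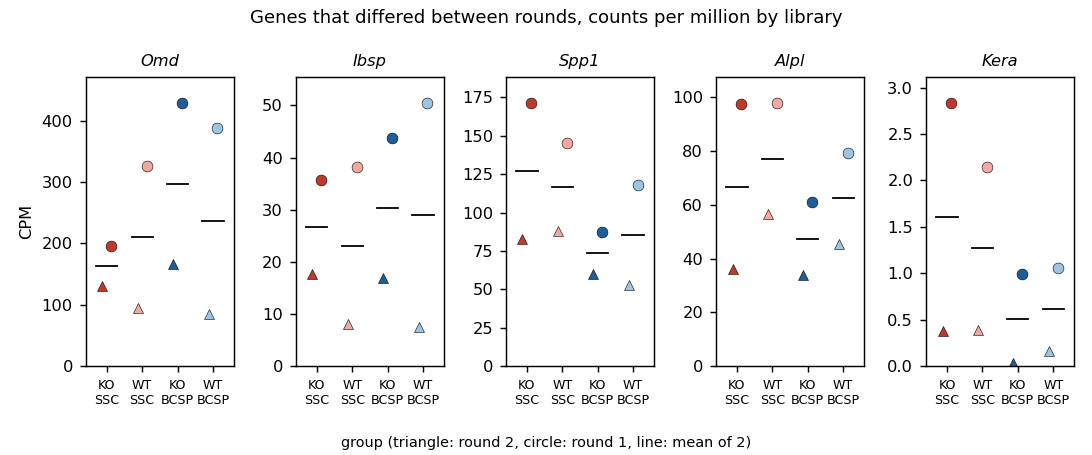
CPM of Omd, of the osteoblast genes Ibsp, Spp1 and Alpl and of the family member Kera in each library, by group (triangles, round 2; circles, round 1; lines, mean of 2 libraries; axes start at 0). In each of the 4 groups the round 2 library is below the round 1 library for all 5 genes.

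Among the partners, Lox, which cross-links collagen, fell by 1.07 (edgeR adjusted p 0.02), and Mmp13, the collagenase of hypertrophic cartilage, fell by 1.05 (edgeR adjusted p 0.0153). Of the chain-building enzymes, Chst1, a keratan sulfate sulfotransferase, fell by 1.36 (edgeR adjusted p 0.00328), and Ust, which sulfates uronic acid, rose by 0.69 (edgeR adjusted p 0.0441). Of the receptors, Tlr2, which biglycan can activate, rose by 1.16 (edgeR adjusted p 0.00242), and Met, which decorin binds, rose by 1.25 (edgeR adjusted p 0.0173). These were 1 of 14, 1 of 9, 2 of 21 and 2 of 16 genes of their lists, against 1.76% of tested genes called between rounds with all libraries.

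The 8 further family members outside the 10 were mostly scarce. Chadl, the chondroadherin-like protein of cartilage, was the highest at 615 to 1062 CPM, and shares 1023 exon bases with the antisense gene L3mbtl2. Ecm2, next to Aspn, had 60.0 to 125 CPM, and Podn, podocan, had 3.73 to 11.2 CPM. None of the 8 passed for genotype or cell type in edgeR, and 2 of 8 by genotype and 3 of 8 by cell type had an unadjusted p under 0.05, against 7.91% and 3.71% of tested genes. Podn was at 0.64 ± 0.21 and Podnl1 at -1.17 ± 0.44 for KO over wild type, and at -0.75 ± 0.21 and 1.31 ± 0.44 for SSC over BCSP. Kera, keratocan, was low in every library (at most 2.83 CPM) and was called lower in round 2, at -3.09 ± 0.47 on the log2 scale (edgeR adjusted p 0.00431).

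The genes whose profile over the 8 libraries was most like that of each member were ranked by the root mean square difference of mean-centred log2 CPM among 7650 genes of at least 10 CPM. For Omd these were Efemp1, a fibulin, at 0.31, Ibsp at 0.34 and Lox at 0.40, where the profile of Omd itself had a root mean square of 0.85. For Dcn they were Mxra8 (0.11), Col1a1 (0.12) and Ckb (0.12), with 0.31 for Dcn itself. For Epyc they were Cd24a (0.13), Fscn1 (0.13) and Slc38a4 (0.14), with 0.44 for Epyc itself, and for Prelp they were Gpc1, a heparan sulfate proteoglycan (0.11), Lbh (0.13) and Wscd2 (0.13), with 0.35 for Prelp itself. Vcan, the large proteoglycan versican, was nearest to Ogn (0.20 against 0.56 for Ogn itself) and Frzb, a secreted Wnt antagonist of cartilage, was nearest to Chad (0.07 against 0.24). Ptprj was nearest to Aspn (0.17 against 0.51). Bgn, Fmod and Lum varied by 0.14 to 0.21, and their nearest genes, Lrrc75b, 1810055G02Rik and Morf4l2, lay within 0.03 to 0.05. All libraries share these profiles' depth and scaling, so the order is a description.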

How the data were processed

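Total RNA from sorted cells was sequenced as 150-base paired reads, per the labels. The authors deposited whole-number counts per gene for 8 libraries. The tools named in the submitters' processing notes are STAR, featureCounts and DESeq2, and the build is mm10. Versions, annotation and strand are not given in the sources used here, and the table's own name points to another counter.

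Counts were tested with edgeR 4.0.16 in R 4.3.3 (quasi-likelihood, robust, TMM scaling), after filterByExpr with a minimum count of 10 and total of 15, which left 22153 genes and all 10 members. Adjusted p is Benjamini-Hochberg over these genes, with a threshold of 0.05. Models were 1 mean per group, cell type plus genotype, and group plus round. The main fits had no block. Standard errors are the log2 fold change over the square root of the F statistic. The script was tested on simulated counts. Alternatives used limma 3.58.1 and DESeq2 1.42.0. Exon lengths came from GENCODE M21, which 54573 of 55471 entries matched by versioned ID. Figures were drawn with matplotlib 3.10.9. The members and lists were chosen with earlier results of these data known. All 10 members are named. In other lists the named genes are those that passed and up to 2 per direction with the lowest p; osteoblast, blood and sort markers are given in part. The chi-square over its degrees of freedom between libraries of a group was 134 to 325, far above sampling noise. Protein sequences were not used here.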

Additional observations from a re-analysis of the deposited data

How the results depend on the processing

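Omd between rounds was called in 18 of 19 alternatives, not all of them separate, and was weaker, at -1.38, without both wild-type SSC libraries, where 0 members were called. Epyc by genotype and Dcn by cell type were called with DESeq2 (-0.67 and -0.57, 1 member each), and Epyc also with no filter on low counts (-0.68, 1 member), over 33146 genes. Leaving out 1 library, Omd between rounds ran from -1.80 to -1.24, and Ogn between rounds passed in some of these fits, though not with all libraries. Aspn, the scarcest member, had at least 246 counts in a library, while each group held only 2 libraries.

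With round as a replicate block, Omd by genotype was at 0.22, Epyc at -0.69 (edgeR adjusted p 0.141), Prelp at -0.47, Aspn at 0.87 and Dcn by cell type at -0.57, and the block called no member. Calls over all genes by genotype were 28 with the block and 3 without. Across 12639 genes the round differences of 2 groups correlated at 0.162 to 0.645 in 5 of 6 combinations and at 0.059 between KO and wild-type BCSP, and the labels do not say what a round shares, so the main fits have no block.

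Of the values printed, 63 of 708 changed sign under an alternative, and of those only drawn in plots or not shown, 64 of 582. The cause was not tested. Without both BCSP libraries of round 2, genotype values were 0.05 (Bgn), 0.03 (Dcn), 0.05 (Fmod) and -0.00 (Ogn), the Aspn difference between cell types was 0.01 and Ogn between rounds was 0.29. With the Y-linked covariate, genotype values were 0.25 (Bgn), 0.27 (Dcn), 0.55 (Fmod), -0.90 (Ogn) and 0.55 (Omd), and in SSC -0.22 (Aspn) and 0.04 (Lum). With limma-voom, Omd by genotype was 0.21. Between rounds, leaving out a group gave 0.10 (Aspn), -0.00, -0.07 and -0.04 (Bgn), 0.00 (Chad), 0.08 (Epyc), 0.06 (Fmod), 0.01 and 0.01 (Lum), and 0.05 and 0.38 (Ogn). The unfiltered Bgn value was -0.00 and the additive Ogn value 0.00.

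Leaving out 1 library, ranges that crossed 0 were, by cell type, -0.21 to 0.15 (Aspn) and -0.09 to 0.00 (Lum). By genotype they were -0.11 to 0.05 (Bgn), -0.11 to 0.05 (Dcn), -0.18 to 0.01 (Fmod) and -0.43 to 0.51 (Omd). For the difference between cell types they were -0.12 to 0.35 (Epyc) and -0.23 to 0.10 (Prelp). Between rounds they were -0.32 to 0.11 (Aspn), -0.08 to 0.12 (Bgn), -0.16 to 0.08 (Epyc), -0.22 to 0.05 (Fmod), -0.08 to 0.01 (Lum) and -0.31 to 0.39 (Ogn). Calls over all genes moved with the tool: by genotype 3 in edgeR, 103 in DESeq2, 234 unfiltered and 1 with limma-voom, by cell type 1, 39, 66 and 1, and between rounds 390, 937, 861 and 441.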
